A study of Mus musculus with 6 samples.

Results

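Trem2 and 9 further genes of the disease-associated microglia state were followed in cultured mouse microglia that received LPS in the presence of GSK-J4. The members were chosen by name, with earlier results of these data known: Trem2, Tyrobp, Apoe, Lpl, Cst7, Itgax, Spp1, Axl, Clec7a and Gpnmb. All 10 matched 1 of the 24411 features of the count tables by symbol, and all 10 were among the 10133 genes with enough counts to be tested. TREM2 is a lipid-sensing receptor of microglia that signals through the adaptor TYROBP (DAP12) and the kinase SYK. In mouse models of amyloid deposition and demyelination, microglia around lesions lower their homeostatic genes and raise a set of genes for lipid handling, phagocytosis and lysosomal function. The full form of that state depends on Trem2, and most of the genes named here are used as its markers.

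The study asked which part of the LPS response of microglia is altered by GSK-J4, an inhibitor of jumonji H3K27 demethylases. LPS is the bacterial endotoxin recognised by TLR4. Primary microglia (PM) came from 3-day-old ICR mice with no stated genetic change. The brains of several neonates were pooled, grown as mixed glial cultures, and the loosely attached cells were shaken off and plated again, so that astrocytes and other glia can remain in small numbers. In the GSK-J4 group, 3 samples of PM received 10 μM GSK-J4 for 4-h. In the LPS + GSK-J4 group, 3 samples received 10 μM GSK-J4 and 10 ng/ml LPS for 4-h. Both groups thus carried the inhibitor, and the comparison measures the effect of LPS in its presence. Untreated PM, PM given LPS alone and BV-2 cells were not analysed here, so no effect of GSK-J4 itself on these genes was measured. The study describes the 3 samples of a treatment as biological replicates from independent experiments, without saying how cultures or litters were divided among them, and p-values measure the spread between these samples.

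Between 2597505 and 3472716 fragments were counted on genes in each library. Of these, 25.6% ± 5.88 (SD, n = 3) belonged to Rn45s, the precursor of ribosomal RNA, in the group without LPS, and 47.1% ± 1.15 with it. Levels are given as CPM, counts scaled to library sizes corrected by TMM factors, on which scale 3 counts in a library correspond to 0.673 to 1.24 CPM. In each group replicate 3 lay farthest from the other libraries, with a chi-square per degree of freedom of 5.81 to 12.5 against 2.12 and 2.32 between replicates 1 and 2. The labelled cell type was checked with 10 microglia markers, all of which were detected. Their summed level was 3073 to 3243 CPM in GSK-J4 and 2491 to 2591 CPM in LPS + GSK-J4. P2ry12 (means of 13.2 and 9.21 CPM) and Tmem119 (5.01 and 2.66 CPM), which mark microglia of the intact brain, were low in both groups.

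In the presence of GSK-J4, 4 of the 10 genes changed with LPS, and not all in the same direction. Lpl, Itgax and Spp1 were up-regulated, by 1.88-, 1.76- and 1.35-fold, and Apoe was down-regulated by 1.44-fold. Of the 10 members, 3 were thus called higher and 1 lower by edgeR with a threshold of 0.01 on the adjusted p, where 8.42% of all tested genes were called higher, 5.46% lower and 13.9% either way. The other 6 members did not pass. With a threshold of 0.05, 3 members were higher and 4 lower, beside 13.7% and 9.91% of the tested genes, or 23.6% either way. None reached the study's size threshold, an absolute log2 fold change of 1.5, which 2.95% of the tested genes passed upwards and 0.809% downwards. The median log2 fold change of the members was -0.10, with a range of -0.53 to 0.91, and that of all tested genes was -0.00064. In 8 of the 10 members, 4 of them lower and 4 higher with LPS, the values of the 2 groups did not overlap, as in 38.2% of all tested genes (18.4% lower and 19.8% higher). The members were chosen with earlier results of these data known, so these shares are a description. In these bulk samples, fewer cells of a type and less RNA per cell cannot be told apart.

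**Figure D1:**
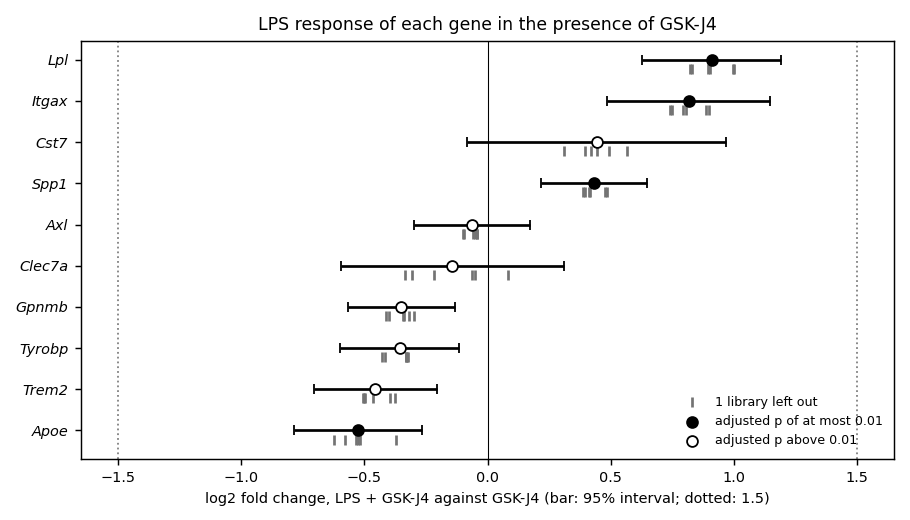
Log2 fold change of each of the 10 genes, LPS + GSK-J4 against GSK-J4, on the horizontal axis, with its 95% interval as a bar, grey ticks for the value with 1 library left out, and dotted lines at an absolute value of 1.5. Filled points (Lpl, Itgax, Spp1 and Apoe) passed the threshold of 0.01 on the adjusted p, and Clec7a is the gene whose ticks lie on both sides of 0.

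The starts of these genes are shown because members with higher and members with lower values after LPS match the same short pattern there. RefSeq (GRCm38.p6) gave 12 promoter windows of 300 bases for 8 of the 10 members, all but Tyrobp and Lpl. The pattern TGANTCA, with any base at N, is wider than the AP-1 site TGA(C/G)TCA. Searched on both strands, it was found in the windows of 4 of these 8 members. The match was TGAGTCA in Itgax and TGACTCA in Gpnmb, but TGAATCA in Trem2 and TGATTCA in Cst7, which the narrower site excludes. Counted by window, TGANTCA was in 4 of the 12 and in 7.81% of 32817 promoter windows. The 4 windows lie on the plus strand and are written 5′ to 3′. Capitals mark the match of TGANTCA, and in Trem2 also TTCCTC, the reverse complement of the PU.1 core GAGGAA.
Trem2, chr17:48346151-48346450: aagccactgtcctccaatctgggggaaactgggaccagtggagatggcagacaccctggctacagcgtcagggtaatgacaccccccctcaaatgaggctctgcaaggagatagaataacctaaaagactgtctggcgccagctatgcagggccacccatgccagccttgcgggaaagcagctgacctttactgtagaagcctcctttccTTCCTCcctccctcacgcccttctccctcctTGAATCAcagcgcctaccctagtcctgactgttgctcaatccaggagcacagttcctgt
Cst7, chr2:150570165-150570464: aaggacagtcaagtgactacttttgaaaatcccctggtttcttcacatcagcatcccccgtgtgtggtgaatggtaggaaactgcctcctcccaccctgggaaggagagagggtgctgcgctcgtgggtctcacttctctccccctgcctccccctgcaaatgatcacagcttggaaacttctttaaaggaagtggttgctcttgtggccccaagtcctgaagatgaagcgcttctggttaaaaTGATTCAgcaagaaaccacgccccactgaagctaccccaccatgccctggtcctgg
Itgax, chr7:128129300-128129599: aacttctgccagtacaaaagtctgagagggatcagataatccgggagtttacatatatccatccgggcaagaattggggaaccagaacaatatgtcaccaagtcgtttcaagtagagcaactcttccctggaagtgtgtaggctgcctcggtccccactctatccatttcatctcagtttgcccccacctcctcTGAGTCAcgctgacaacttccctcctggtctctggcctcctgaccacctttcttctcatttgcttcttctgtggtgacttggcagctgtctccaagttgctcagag
Gpnmb, chr6:49036268-49036567: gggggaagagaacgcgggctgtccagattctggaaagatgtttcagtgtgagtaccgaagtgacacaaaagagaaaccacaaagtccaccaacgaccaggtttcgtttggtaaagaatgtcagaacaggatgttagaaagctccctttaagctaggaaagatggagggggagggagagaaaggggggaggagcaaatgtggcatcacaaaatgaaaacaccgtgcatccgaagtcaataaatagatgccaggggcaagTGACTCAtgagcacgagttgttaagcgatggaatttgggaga
The match of TGANTCA began at -9 relative to the RefSeq start in Trem2, at -6 in Cst7, at -56 in Itgax and at 8 in Gpnmb. In Itgax and Gpnmb the RefSeq start is not the GENCODE start that is given with the position of the gene. Of these 4 genes, Itgax was up-regulated and the others did not pass the test, with higher values in Cst7 and lower values in Trem2 and Gpnmb. The PU.1 core was held by windows of 5 members (Trem2, Apoe, Spp1, Axl and Clec7a). By window, these were 7 of the 12, beside 28.3% of all promoter windows. Windows of the same gene can overlap, and those of Clec7a hold the same single site, which was counted in each. The core of the interferon-stimulated response element (ISRE) was present in 1 of the 12 windows, of Spp1, and in 3.43% of all windows. The E-box CACGTG, the M-box CATGTG, TTGCNNCAA of C/EBP factors, the kappa B core and the DR4 repeat of liver X receptors were in no member window, although they occurred in 7.15%, 14.2%, 2.08%, 1.63% and 0.0152% of all windows. Overlapping matches of different motifs were each counted. A match is a description of the sequence, and no binding was measured in these data.

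Trem2 (chr17:48346401-48354147, plus strand, mm10) encodes the receptor on which the full form of the state depends. Its level was 274, 272 and 320.5 CPM in GSK-J4 replicates 1, 2 and 3, and 192, 214 and 225 CPM in LPS + GSK-J4 replicates 1, 2 and 3. Every library with LPS lay below every library without it, and replicate 3 was the highest in each group. The log2 fold change of -0.46 (SE 0.12, 95% interval -0.71 to -0.20) had an adjusted p of 0.0102 and did not pass the threshold of 0.01. The call turned on the settings: 8 of 15 alternatives gave an adjusted p under the threshold, and their whole range was 9.14e-05 to 0.0472. Among them was the DESeq2 Wald test (0.00696), and leaving out LPS + GSK-J4 replicate 3 also put it past the threshold (0.00179). Tyrobp (chr7:30413760-30417585, plus strand), the adaptor that carries the signal of TREM2 into the cell, stood at 328, 286 and 331 CPM in GSK-J4 and at 236, 235 and 266 CPM in LPS + GSK-J4. The groups did not overlap here either, and all 3 values with LPS were the lower ones. Their log2 difference was -0.36 (SE 0.11, 95% interval -0.60 to -0.12), with an adjusted p of 0.0321. With 1 library left out the adjusted p of Tyrobp was 0.00675 to 0.136, past the threshold only without LPS + GSK-J4 replicate 3. Within a library the receptor and its adaptor kept a similar ratio, with a log2 ratio of Trem2 to Tyrobp counts of -0.26 to -0.05 in GSK-J4 and -0.30 to -0.13 in LPS + GSK-J4, and these ranges overlapped.

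Among 10 tested genes of TREM2 signalling, 3 fell, 1 rose and 6 did not pass, with a median log2 fold change of -0.33. For this and the later gene lists, the shares called over all tested genes were 8.42% higher and 5.46% lower. Vav1, a guanine nucleotide exchange factor, went from a mean of 218 to 123 CPM (log2 fold change -0.82, adjusted p 8.33e-05). The adaptor Grb2 went from 104 to 61.8 CPM (-0.75, adjusted p 0.000558). Inpp5d, the lipid phosphatase SHIP1 that opposes PI3K, went from 352 to 219 CPM (-0.68, adjusted p 0.000395). All 3 were past the threshold with any 1 library left out. Pik3r1, a regulatory subunit of PI3K, rose from 28.8 to 46.3 CPM (0.68, adjusted p 0.00781), but with 1 library left out it stayed past the threshold only without LPS + GSK-J4 replicate 3, and reached an adjusted p of 0.0538 without LPS + GSK-J4 replicate 2. It did not pass the DESeq2 Wald test either (adjusted p 0.0112). The kinase Syk had 173 and 132 CPM, a log2 fold change of -0.39 and an adjusted p of 0.0459. With 1 library left out its adjusted p was 0.00266 to 0.176, past the threshold only without LPS + GSK-J4 replicate 3. Plcg2, a phospholipase downstream of SYK, had 21.2 and 19.7 CPM, with an adjusted p of 0.861. Hcst (DAP10), the other adaptor of TREM2, was near the lower limit of detection, with means of 3.60 and 2.90 CPM, and was not tested. Of 3 matched genes linked to the shedding of TREM2 from the cell surface, 1 fell. Adam10, its main sheddase, went from 202 to 139 CPM (log2 fold change -0.54, adjusted p 0.00563) and lost the call without GSK-J4 replicate 1 (0.0212), GSK-J4 replicate 2 (0.0415) or LPS + GSK-J4 replicate 2 (0.0304). The related protease Adam17 had 138 and 115 CPM and an adjusted p of 0.199. Of the 5 other genes of the TREM family, Trem1, an amplifier of inflammatory signals, was alone tested, at 2.18 and 4.34 CPM (log2 fold change 0.98, adjusted p 0.0975).

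The genes most like Trem2 across the 6 libraries were sought among 3605 genes with a mean log2 CPM of at least 5, by Pearson's r of log2 CPM. They were Sphk2 (r = 0.999), Ypel3 (0.994), Plekho1 (0.994), Pnrc1 (0.993) and Daglb (0.993). Sphk2, a sphingosine kinase, had 56.2, 53.4 and 73.3 CPM in GSK-J4 and 29.3, 35.5 and 37.99 CPM in LPS + GSK-J4, so that replicate 3 was the highest of each group, as for Trem2. Among the members, r with Trem2 was 0.940 for Apoe, 0.934 for Tyrobp, 0.886 for Gpnmb and 0.776 for Axl. It was near 0 for Clec7a (-0.14) and negative for Cst7 (-0.50), Itgax (-0.75), Lpl (-0.95) and Spp1 (-0.97). The 6 points fall into the 2 groups and share their libraries and scaling, so these coefficients describe the pattern and carry no test.

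Of the lipid genes, Apoe and Lpl moved in opposite directions. Apoe (chr7:19696109-19699188, minus strand) encodes apolipoprotein E, which carries cholesterol between brain cells and is a ligand of TREM2. It stood at 12629.8, 13529.9 and 17472 CPM in GSK-J4 and at 10087, 10229.6 and 10002 CPM in LPS + GSK-J4. The 3 values with LPS lay close together and below all values without it, and GSK-J4 replicate 3 was well above its group. Apoe thus had a log2 fold change of -0.53 (SE 0.12, 95% interval -0.78 to -0.27, adjusted p 0.00500), which was between -0.62 and -0.37 with 1 library left out. The call was lost without GSK-J4 replicate 2 (adjusted p 0.0125), LPS + GSK-J4 replicate 1 (0.0163) or LPS + GSK-J4 replicate 2 (0.0337). Apoe had the most counts of any gene outside the ribosomal features in each of the 6 libraries, at 2.34 to 3.18% of those counts in GSK-J4 and 1.76 to 1.86% in LPS + GSK-J4. Lpl (chr8:68880491-68907448, plus strand) encodes lipoprotein lipase, which releases fatty acids from lipoproteins. Its level was 124, 139.8 and 109 CPM in GSK-J4 and 238, 262 and 202 CPM in LPS + GSK-J4. Every value with LPS was above every value without it, and replicate 3 was the lowest in each group. With a log2 fold change of 0.91 (SE 0.13, 95% interval 0.63 to 1.19, adjusted p 0.000113), Lpl had a higher log2 fold change than 89.7% of the tested genes. It passed the test in all 15 alternatives.

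Of the 20 tested genes of lipoprotein and cholesterol handling, none rose, 4 fell and 16 did not pass, and the median log2 fold change was -0.31. Over all tested genes, 8.42% were called higher and 5.46% lower. Nceh1, a cholesteryl ester hydrolase, fell from a mean of 531 to 224 CPM (log2 fold change -1.24, adjusted p 3.36e-06). Rxra, the receptor that pairs with the liver X receptors, fell from 246 to 117 CPM (-1.08, adjusted p 2.34e-05). Abca1, the exporter that loads cholesterol onto apolipoprotein E, fell from 1899.9 to 1195 CPM (-0.67, adjusted p 0.000225), and the acyltransferase Soat1 was the fourth. All 3 with values here were called with any 1 library left out. The exporter Abcg1 (26.1 and 20.3 CPM, adjusted p 0.209) and the liver X receptor Nr1h3 (6.58 and 5.00 CPM, adjusted p 0.391) did not pass. Of the cofactors of lipoprotein lipase, the maturation factor Lmf1 had 12.5 and 9.63 CPM (adjusted p 0.439) and the inhibitor Angptl4 4.01 and 7.11 CPM (0.232). Gpihbp1, which anchors the lipase on capillary endothelium, had no count in any library, where 3 counts are 0.673 to 1.24 CPM.

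**Figure D2:**
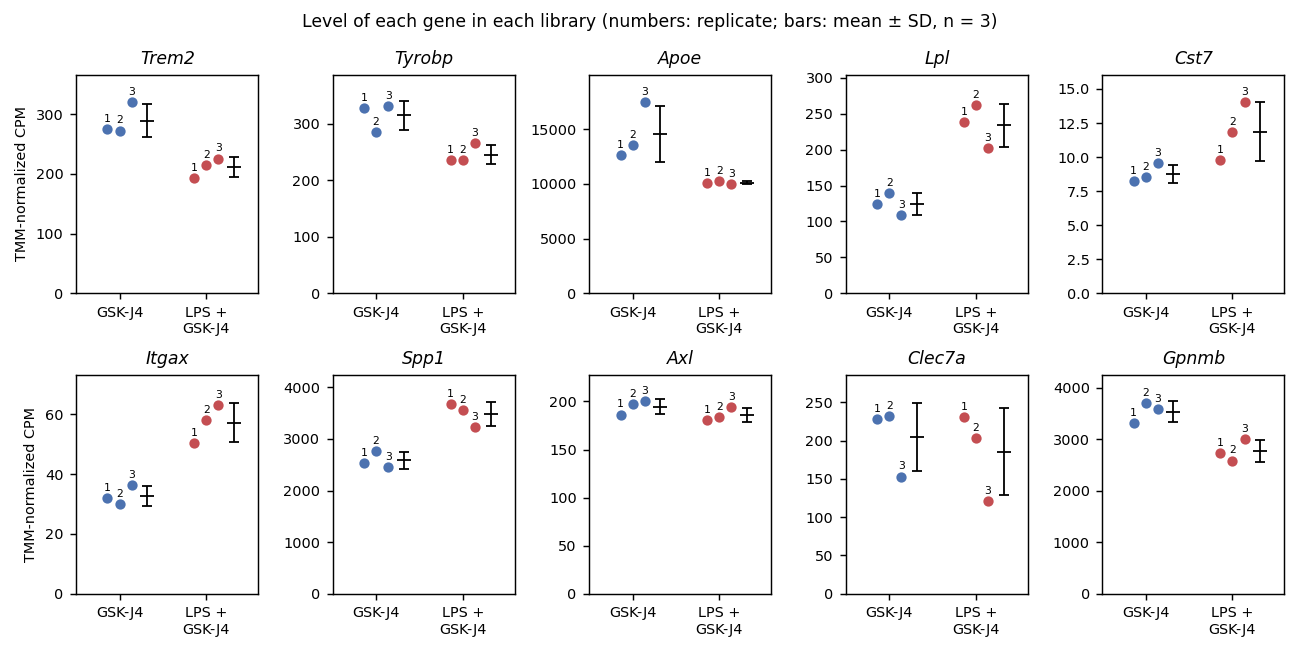
Level of each of the 10 genes in each library as TMM-normalised CPM, with the replicate number above each point, 1 panel per gene with an axis from 0, and the mean ± SD (n = 3) beside each group. The GSK-J4 and LPS + GSK-J4 points overlap in Axl and Clec7a and are apart in the other 8 panels.

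Among the surface receptors, Itgax rose and the other 2 did not pass the test. Itgax (chr7:128129547-128150657, plus strand) encodes CD11c, an integrin alpha chain that pairs with the beta chain encoded by Itgb2. It had 31.9, 29.9 and 36.3 CPM in GSK-J4 and 50.3, 58.0 and 63.2 CPM in LPS + GSK-J4. All values with LPS exceeded those without it. For Itgax the log2 fold change was 0.81 (SE 0.16, 95% interval 0.49 to 1.14, adjusted p 0.00107), and the call was lost only without GSK-J4 replicate 2 (0.0114), of the 15 alternatives. Clec7a (chr6:129461591-129472779, minus strand, annotated as a polymorphic pseudogene by GENCODE) encodes Dectin-1, a receptor for fungal beta-glucan. Its level was 228, 232 and 153 CPM in GSK-J4 and 231, 204 and 121 CPM in LPS + GSK-J4. The groups overlapped, and replicate 3 was far below the other libraries in both. The log2 fold change of -0.14 (SE 0.21, 95% interval -0.60 to 0.31, adjusted p 0.679) was the least precise of the well-expressed members, and it turned to 0.08 without LPS + GSK-J4 replicate 3. Axl (chr7:25757273-25788705, minus strand), a TAM receptor tyrosine kinase for the clearance of dying cells, stood at 186, 197 and 201 CPM in GSK-J4 and at 181, 184 and 194 CPM in LPS + GSK-J4. These values overlapped. The log2 fold change of -0.06 (SE 0.11, adjusted p 0.733) had a 95% interval of -0.30 to 0.17.

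The partners of these receptors were followed from 3 lists. Of 11 tested beta2 integrins and receptors of osteopontin, 2 rose, none fell and 9 did not pass, with a median log2 fold change of 0.06. Itga5, the alpha chain of the fibronectin receptor, rose from a mean of 189 to 434 CPM (1.20, adjusted p 2.93e-05) and Cd44, a receptor of hyaluronan and osteopontin, from 531 to 944 CPM (0.83, adjusted p 3.85e-05). Itgb2, the partner chain of Itgax, had 368 and 384 CPM (log2 fold change 0.06, adjusted p 0.737). Of 9 tested genes of the Dectin-1 pathway and related lectins, 2 rose, 1 fell and 6 did not pass. Malt1, a protease of the CARD9 and BCL10 complex, rose from 53.7 to 295 CPM (log2 fold change 2.44, adjusted p 4.20e-08) and was called with any 1 library left out. Clec4e (Mincle) rose from 105 to 398 CPM (1.91, adjusted p 0.00805), but the call was lost without GSK-J4 replicate 2 (0.0417), LPS + GSK-J4 replicate 1 (0.0258), replicate 2 (0.0158) or replicate 3 (0.0687), with unstranded counts (0.0106) and with no filter on low counts (0.0449). Clec4n (Dectin-2) fell from 88.4 to 48.6 CPM (-0.87, adjusted p 0.00159), and lost the call without GSK-J4 replicate 1 (0.0124) or LPS + GSK-J4 replicate 2 (0.0199). The adaptor Card9 had 19.3 and 20.0 CPM (log2 fold change 0.05, adjusted p 0.898), and its sign depended on the setting. Of the 4 TAM receptors and ligands, 1 rose and 3 did not pass. Tyro3 rose from 2.77 to 7.39 CPM (1.39, adjusted p 0.00570), a low level, and did not pass with any 1 of the 6 libraries left out (adjusted p 0.0117 to 0.0237) or by the DESeq2 Wald test (0.0224). The Axl ligand Gas6 had 105 and 71.4 CPM (-0.55, adjusted p 0.0349). With 1 library left out the adjusted p of Gas6 was 0.00195 to 0.151, past the threshold only without LPS + GSK-J4 replicate 3. The ligand Pros1 had 22.6 and 17.1 CPM (-0.40, adjusted p 0.138) and the receptor Mertk 98.0 and 82.0 CPM (-0.26, adjusted p 0.148).

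Of the secreted and lysosomal members, Spp1 rose, and Gpnmb and Cst7 did not pass the test. Spp1 (chr5:104435118-104441050, plus strand) encodes osteopontin, a secreted ligand of integrins and CD44. It stood at 2534, 2766 and 2458 CPM in GSK-J4 and at 3680.0, 3558 and 3223 CPM in LPS + GSK-J4. All libraries with LPS were above those without it. This was a log2 fold change of 0.43 (SE 0.10, 95% interval 0.21 to 0.65, adjusted p 0.00562). With 1 library left out the log2 fold change was 0.39 to 0.48 and passed only without LPS + GSK-J4 replicate 3, the adjusted p being 0.0296, 0.0204 and 0.0164 without GSK-J4 replicates 1, 2 and 3, and 0.0283 and 0.0389 without LPS + GSK-J4 replicates 1 and 2. In GENCODE vM21 its exons share 309 bases with those of Gm42793 on the same strand. Fragments there would be assigned to neither gene if the annotation used for counting, which is not given, held both. Gpnmb (chr6:49036546-49070929, plus strand), a transmembrane glycoprotein of lysosomes, had 3312, 3704 and 3585 CPM in GSK-J4 and 2734, 2581 and 3003 CPM in LPS + GSK-J4. The 3 values with LPS were the lower ones, with no overlap. Its log2 fold change of -0.35 (SE 0.10, 95% interval -0.57 to -0.13) had an adjusted p of 0.0207. With 1 library left out the adjusted p of Gpnmb was 0.00141 to 0.126, past the threshold only without LPS + GSK-J4 replicate 3. Cst7 (chr2:150570415-150578944, plus strand) encodes cystatin F, an inhibitor of lysosomal cysteine proteases and one of the genes by which the disease-associated state is most often recognised. It was the lowest of the members in counts, with 35, 38 and 26 counts or 8.26, 8.53 and 9.53 CPM in GSK-J4, and 25, 31 and 34 counts or 9.76, 11.8 and 14.04 CPM in LPS + GSK-J4. The CPM values with LPS were higher without overlap. At this depth the log2 fold change of 0.44 (SE 0.25, adjusted p 0.222) had a 95% interval of -0.08 to 0.97, and no difference was detectable.

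Of 13 tested genes of cystatins, cathepsins and legumain, none rose, 3 fell and 10 did not pass, with a median log2 fold change of -0.39. The shares over all tested genes were again 8.42% higher and 5.46% lower. The list holds cysteine proteases, their inhibitors and proteases of other classes, such as the aspartic protease encoded by Ctsd. Ctsd fell from a mean of 11215 to 7108 CPM (-0.66, adjusted p 0.000213), and Lgmn, an asparaginyl protease that activates other cathepsins, from 483 to 352 CPM (-0.46, adjusted p 0.00779). The third was Ctsb. Lgmn lost the call without GSK-J4 replicate 2 (0.0555) or 3 (0.0225), or LPS + GSK-J4 replicate 1 (0.0336) or 2 (0.0481). Ctsc, a target of cystatin F, had 179 and 194 CPM (log2 fold change 0.11, adjusted p 0.545), and Ctsl 598 and 753 CPM (0.33, adjusted p 0.0442). With 1 library left out the adjusted p of Ctsl was 0.00404 to 0.156, past the threshold only without LPS + GSK-J4 replicate 3.

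Transcription factors and receptors that set the state were next compared. Of 18 tested, 1 rose, 7 fell and 10 did not pass, with a median log2 fold change of -0.29. Tfec, of the MiT/TFE family that drives lysosomal genes and Gpnmb, rose from a mean of 9.45 to 56.8 CPM (2.57, adjusted p 3.01e-08). Its relative Tfeb fell from 37.4 to 18.3 CPM (-1.02, adjusted p 0.000970), with an adjusted p of 0.0101 without LPS + GSK-J4 replicate 2. Mitf had 104 and 142 CPM (0.44, adjusted p 0.0216). Its adjusted p with 1 library left out was 0.00156 to 0.0957, past the threshold only without LPS + GSK-J4 replicate 3. Tfe3 had 77.3 and 81.1 CPM (0.07, adjusted p 0.787), with a sign that depended on the libraries kept. Bhlhe40 and Bhlhe41, repressors named as regulators of lipid and lysosomal genes in microglia, fell from 786 to 214 CPM (-1.88, adjusted p 3.99e-09) and from 670.5 to 179 CPM (-1.91, adjusted p 3.99e-09). Cebpa, Ppard, Hif1a and Csf1r were the other genes that fell. Spi1, which encodes PU.1, had 167 and 144 CPM (-0.21, adjusted p 0.285).

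Of 20 further genes of the disease-associated state that are not members, 4 rose, 4 fell and 12 did not pass, with a median log2 fold change of -0.04. Csf1, a growth factor of microglia, rose from a mean of 74.5 to 285 CPM (1.93, adjusted p 2.01e-07), and the inhibitory receptor gene Lilrb4a, listed as Lilrb4, from 461 to 843 CPM (0.87, adjusted p 0.000167). Cd52 and Lgals3 also rose. Fabp5, a fatty acid binding protein, fell from 178 to 67.7 CPM (-1.39, adjusted p 1.75e-06), and Ctsd, Lyz2 and Ctsb fell with it. Of 9 tested homeostatic genes, which are reduced in the disease-associated state, none rose, 1 fell and 8 did not pass. Their median log2 fold change was -0.42, with 8 values below 0 and 1 above. The chemokine receptor Cx3cr1 fell from 362 to 260.5 CPM (-0.48, adjusted p 0.00354), and lost the call without GSK-J4 replicate 1 (0.0158), GSK-J4 replicate 2 (0.0244) or LPS + GSK-J4 replicate 2 (0.0228).

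**Figure D3:**
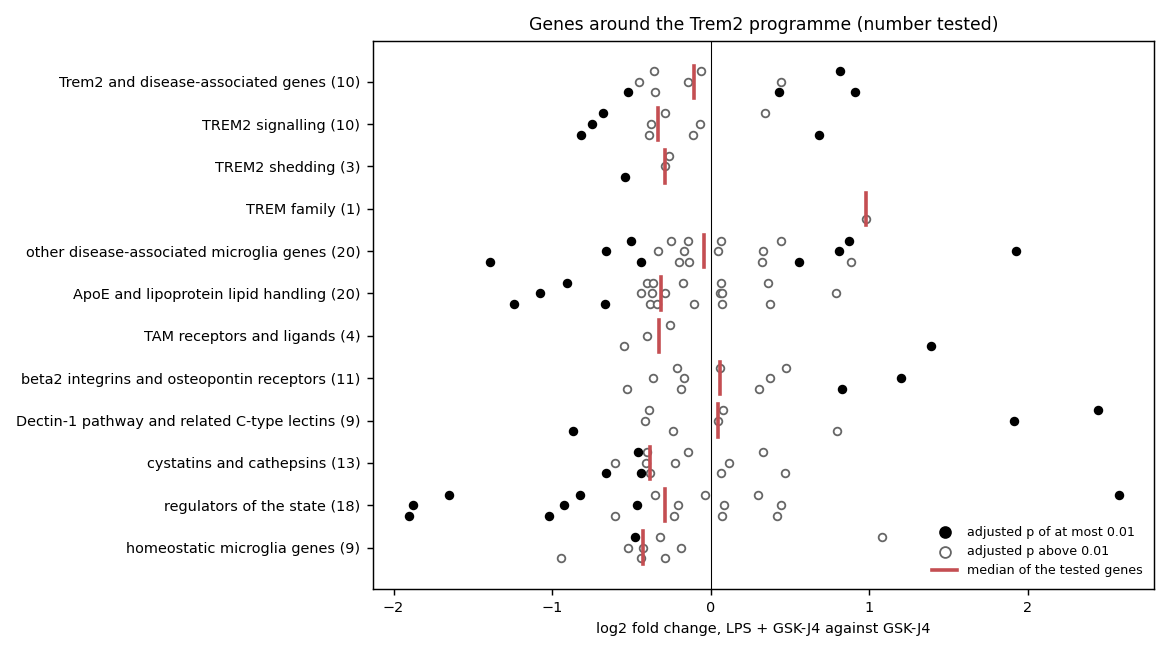
Log2 fold change of each tested gene, LPS + GSK-J4 against GSK-J4, on the horizontal axis, by gene list, with the number of tested genes in brackets, filled points where the adjusted p did not exceed 0.01 and a red line at the median. The lists of lipid handling and of cystatins and cathepsins hold no filled point above 0, with medians of -0.31 and -0.39. That of the 10 members has filled points on both sides. Over all tested genes, 8.42% were called higher and 5.46% lower.

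Per kilobase of exon, the members covered a wide range, with Apoe far above the rest. In GSK-J4 the level per kilobase, in CPM per kb, was 6803 ± 1205 (SD, n = 3) for Apoe, 1569 ± 97.3 for Spp1, 542 ± 30.8 for Gpnmb and 472 ± 37.9 for Tyrobp. Clec7a (77.5 ± 16.9) and Trem2 (58.4 ± 5.50) followed, and their ranges overlapped. Axl (38.7 ± 1.47), Lpl (11.9 ± 1.46), Cst7 (8.90 ± 0.681) and Itgax (6.80 ± 0.687) came last, each pair of neighbours without overlap. In LPS + GSK-J4 the order was the same by the mean level per kilobase, but Gpnmb (426 ± 32.8) and Tyrobp (368 ± 25.9) overlapped, as did Cst7 (12.04 ± 2.17) and Itgax (11.9 ± 1.34), and Lpl reached 22.3 ± 2.85. Apoe was the fourth and Spp1 the 11th of 23334 genes by this measure in both groups. The order depended on the length used, most of all for Trem2. Its exons cover 4946 bases in all, but the longest coding transcript has 1088, and by the latter its level in GSK-J4 was 266 ± 25.02 CPM per kb, the fifth place ahead of Clec7a. By the same transcript length Lpl had 30.2 ± 3.72 CPM per kb without LPS and 56.9 ± 7.27 with it. With LPS it thus passed Axl (43.7 ± 1.71), and Itgax (14.1 ± 1.596) passed Cst7.

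**Figure D4:**
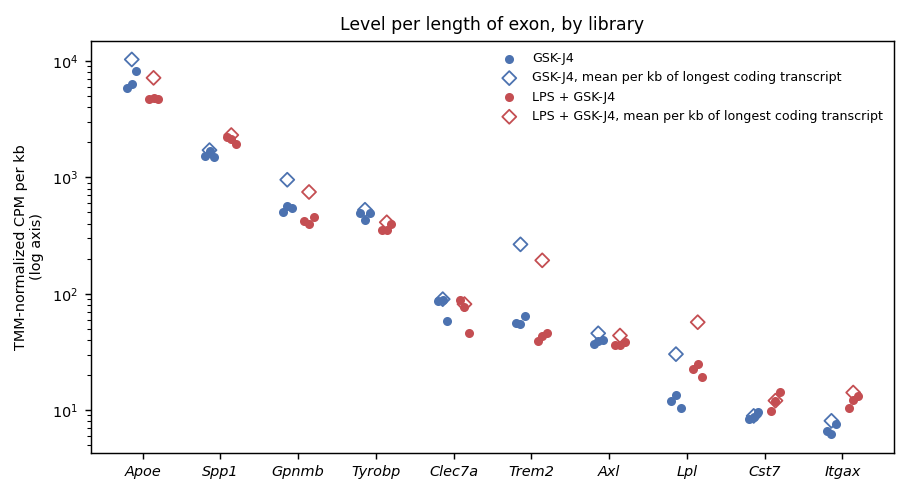
TMM-normalised CPM per kilobase of exon in each library, on a log axis, with the genes ordered by their mean in GSK-J4 and diamonds for the mean per kilobase of the longest coding transcript. Apoe and Spp1 are the 2 highest of the 10 members in every library, and Trem2 shows the widest gap between the filled points and the diamonds.

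Ratios between members in the same library do not depend on the scaling of libraries. The log2 ratio of Trem2 to Lpl counts was 1.14, 0.96 and 1.55 in GSK-J4 and -0.31, -0.29 and 0.16 in LPS + GSK-J4, so that Trem2 had more counts than Lpl in each library without LPS. With LPS, Lpl had more counts than Trem2 in replicates 1 and 2 and fewer in replicate 3. The log2 ratio of Apoe to Spp1 counts was 2.29 to 2.83 in GSK-J4 and 1.45 to 1.63 in LPS + GSK-J4. The log2 ratio of Spp1 to Gpnmb counts was -0.54 to -0.39 and 0.10 to 0.46, so Gpnmb led in every library without LPS and Spp1 in every library with it. The log2 ratio of Lpl to Itgax counts, both up-regulated, was 1.59 to 2.23 and 1.68 to 2.24, and overlapped. In all, the 10 members took 3.65 to 4.49% of the counts outside the ribosomal features in GSK-J4 and 3.05 to 3.20% in LPS + GSK-J4. Apoe alone held 63.9 to 70.8% of the members' counts in GSK-J4 and 57.2 to 58.3% in LPS + GSK-J4.

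Markers of microglia and of other cells differed between the groups as well. Of the 10 microglia markers, 2 (Csf1r and Cx3cr1) fell and none rose, and the log2 difference of their summed level was -0.30. Of the astrocyte markers, 4 of 8 tested rose, and the sum went from 60.2 to 63.4 CPM in GSK-J4 to 144 to 175 CPM in LPS + GSK-J4. Of the oligodendrocyte lineage markers, 5 of 8 tested rose, with sums of 216 to 250 CPM and 394 to 448 CPM. Sums of neuronal markers were 10.9 to 11.2 and 26.8 to 30.1 CPM, and 2 of 2 tested rose. These were Tubb3 (means of 5.27 and 13.9 CPM) and Stmn2 (4.57 and 13.1 CPM). At counts too low to test, Snap25 (0.079 and 1.07 CPM) was higher, and Rbfox3 (0.52 and 0.26 CPM) and Syt1 (0.59 and 0.14 CPM) were lower. Sums of endothelial markers were 13.9 to 21.7 and 25.8 to 62.4 CPM, and 1 of 2 tested rose, Cdh5 (12.3 and 35.2 CPM). Flt1 (4.63 and 6.84 CPM) did not pass. Pecam1 (1.01 and 0.79 CPM) and Tek (0.28 and 0.51 CPM) were not tested, and Cldn5 was at 0 in every library. Sums of border macrophage markers were 132 to 159 and 74.3 to 109 CPM (1 of 3 tested fell). For each of these 6 sums a 2-sided exact permutation test gave p = 0.1, the smallest that 3 libraries against 3 allow. Mesenchymal markers, at 80.1 to 281 and 138 to 427 CPM, overlapped (exact permutation p = 0.3), and none of 6 passed the test. Relative to the summed microglia markers of the same library, the log2 difference between the groups was -0.15 for Trem2, -0.05 for Tyrobp and -0.05 for Gpnmb, and in each of these 3 genes the groups then overlapped. Apoe (-0.21), Lpl (1.22), Itgax (1.11), Spp1 (0.74), Cst7 (0.73) and Axl (0.24) did not overlap on this scale. The divisor itself holds Csf1r and Cx3cr1, which fell with LPS, so dividing by it makes any fall smaller. This scale therefore cannot separate fewer microglia from lower marker levels per cell. Astrocytes also express Apoe, and the part of other cells in the members' values was not tested.

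**Figure D5:**
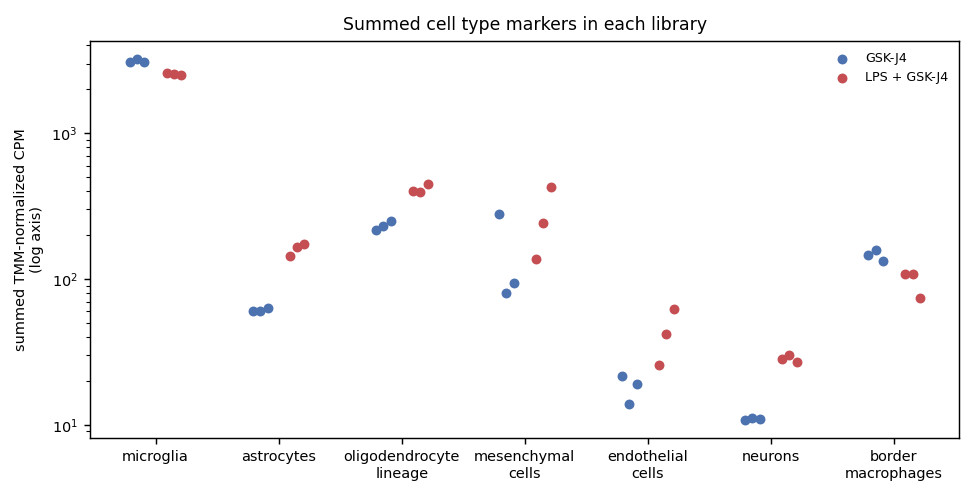
Summed TMM-normalised CPM of the markers of 7 cell types in each library, on a log axis, with GSK-J4 in blue and LPS + GSK-J4 in red. The microglia sum is lower in all 3 LPS + GSK-J4 libraries, and the astrocyte, oligodendrocyte lineage, endothelial and neuronal sums are higher in all 3.

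With replicate 3 of both groups left out, an alternative chosen after the data were seen, 7 of the members passed the test, and Apoe moved most in size. Over all genes, that fit called 993 higher and 757 lower of 10375 tested, beside 853 and 553 of 10133 with all 6 libraries. Trem2 then had a log2 fold change of -0.42 (adjusted p 0.00122), Tyrobp of -0.37 (0.00386), Gpnmb of -0.39 (0.000228) and Apoe of -0.36 (0.000221). Lpl (0.93, adjusted p 1.10e-07), Itgax (0.82, 0.000130) and Spp1 (0.46, 2.25e-05) were little moved. Cst7 (0.37, 0.385), Axl (-0.07, 0.643) and Clec7a (-0.07, 0.608) did not pass. No member changed sign between this fit and that of all 6 libraries.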

How the data were processed

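Ribosomal RNA was depleted from the RNA of PM before strand-specific libraries were prepared and sequenced from both ends. Per the labels, the authors trimmed the reads with Trimmomatic 0.33 and aligned them to mm10 with STAR 2.5.1, whose table of raw counts of fragments per gene they deposited for each library, with no normalization. The annotation used for counting is not given in the sources used here. STAR counts a fragment only if it maps to 1 place and to 1 gene, so genes with near-identical copies (Lyz2, Lilrb4a) are uncertain. Of its 3 columns the reverse-strand one, which fits the kit, was used, and fragments assigned to no gene were left out.

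The model was fitted by edgeR 4.0.16 in R 4.3.3, beside limma 3.58.1. Genes were filtered with filterByExpr (minimum count 10, minimum total 15), libraries were scaled by TMM, and the groups were compared by the quasi-likelihood test in its robust form, with no covariates. The p-values were adjusted by Benjamini-Hochberg over all 10133 genes tested, and a gene was said to have risen or fallen at an adjusted p of at most 0.01. The SE is the log2 fold change over the square root of F. DESeq2 1.42.0, the tool of the study, was an alternative. The fit was also run on simulated counts with the same spread for every gene. These do not hold the distance of replicate 3 from the other libraries, so they cannot show how the fit behaves there. Alternatives were unstranded counts, DESeq2 size factors, upper-quartile factors, 2 filters on low counts, an adjusted p of 0.05, removal of Rn45s, Mir6236 and Lars2, a replicate block, leaving out each library, and other transcript lengths.

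Between 2597505 and 3472716 fragments were counted on genes, and 59.3 to 62.6% of the uniquely mapped fragments of a library lay in no annotated exon on that strand. Limits and intervals cover counting error and the spread between 3 libraries per group only. Positions and exon lengths are from GENCODE vM21 (mm10), and promoter windows from RefSeq (GRCm38.p6). Summaries and plots used Python 3.11.15 (pandas 2.3.3, numpy 2.4.6, scipy 1.17.1, matplotlib 3.10.9).

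The members and the gene lists were chosen with earlier results of these data known. Of the listed genes, Ms4a4a was not matched, and Lilrb4 was matched through a synonym. Named genes were all members, the 2 genes with the largest increase and the 2 with the largest decrease among those past the test in each list, partners of the members (receptors, ligands, adaptors, cofactors), and the 5 genes most like Trem2. Soat1, Ctsb, Lyz2, Cd52, Lgals3, Cebpa, Ppard, Hif1a and Csf1r were named after their values were seen.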

Additional observations from a re-analysis of the deposited data

How the results depend on the processing

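Lpl passed the test in all 15 alternatives, Itgax in 14, Apoe in 12, Spp1 in 10, Trem2 in 8, Gpnmb in 4 and Tyrobp in 3, and Cst7, Axl and Clec7a in none. The number of members called lower, 1, was 2 with unstranded counts, DESeq2 size factors, upper-quartile factors or the DESeq2 Wald test, 3 with no filter on low counts, and 4 with an adjusted p of 0.05 or, chosen after the data were seen, without replicate 3 of both groups. With 1 library left out it was 0 to 4, and the number called higher, 3, was 1 to 3, with 1 reached without GSK-J4 replicate 2. Over all genes, the 853 called higher became 1386 and the 553 called lower 1004 at an adjusted p of 0.05, the latter also 858 with no filter and 312 to 679 with 1 library left out (312 without LPS + GSK-J4 replicate 2, 359 without GSK-J4 replicate 2). The 299 genes higher by at least 1.5 became 176 where every library had to have 10 counts. The replicate numbers share no stated culture or day. The deviations of same-numbered libraries from their group means had correlations of -0.0102, 0.117 and 0.295. Those of differently numbered libraries were -0.29 to 0.24. The numbers were not taken as a pairing, and whether the libraries numbered 3 share a culture or day was not tested. A replicate block gave 1259 genes called higher, and 1016 genes and 4 members called lower. Trem2 (adjusted p 9.14e-05), Tyrobp (0.00165) and Gpnmb (0.000823) passed the threshold in that fit. Signs turned in 4 genes far from the threshold. With 1 library left out, the log2 fold change was -0.34 to 0.0812 for Clec7a (0.0812 without LPS + GSK-J4 replicate 3), -0.21 to 0.16 for Plcg2 (0.16 without GSK-J4 replicate 3), -0.10 to 0.19 for Tfe3 (-0.10 without LPS + GSK-J4 replicate 3) and -0.0840 to 0.21 for Card9 (-0.0840 without LPS + GSK-J4 replicate 3 and -0.03 without GSK-J4 replicate 1). Without replicate 3 of both groups it was 0.20 for Plcg2, -0.0297 for Tfe3 and -0.0378 for Card9, and with no filter -0.0064 for Card9. Why these values moved was not tested. Of 1367 values computed under an alternative, 1168 kept direction, side of the threshold and size, 45 lost the threshold, 40 gained it and 105 counts or medians moved. Another scaling moved the median of all genes by at most 0.01 on the log2 scale. Depth limits Cst7 (25 to 38 counts per library) and Tyro3.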

Other observations

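Fragments on the strand opposite to a member were few: 0.323% of those on either strand for Apoe, 0.452% for Trem2 and 1.11% for Itgax, beside 1.13% over all genes. Clec7a was not the only gene with its lowest level of each group in replicate 3. In Tgfbr1, a receptor of the growth factor that maintains homeostatic microglia, chosen after its values were seen, the level was 356, 411 and 287 CPM in GSK-J4 and 297, 251 and 146 CPM in LPS + GSK-J4. In Cebpb, a transcription factor of inflammatory genes, replicate 3 was instead the highest, with 89.2, 86.6 and 180.03 CPM in GSK-J4 and 112, 121 and 201 CPM in LPS + GSK-J4.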
